A study of Mus musculus with 20 samples.

Results

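The addition of IL-12 to antigen and B7 stimulation was compared at 48 h of culture in mouse CD8 T cells. The comparison took the 3 arrays titled as Ag-B7 with IL-12 at 48 h against the 4 arrays titled as Ag-B7 at 48 h, which are 7 of the 20 arrays of the series. It ran across all genes named by a single symbol, 8251 on the array, of which 6279 were bright enough to be tested. The cells of every group came from OT-1 TCR transgenic C57Bl6 mice of 6 to 8 weeks. The transgene gives all T cells a receptor for 1 ovalbumin peptide that H-2Kb presents, so the cells stand for a single antigen specificity. Lymph node CD8 cells low in CD44, a marker of earlier activation, were prepared by removing other cells. In culture they met microspheres that carried the H-2Kb peptide complex (the antigen, Ag) and the costimulatory protein B7-1 (B7), and no antigen-presenting cell. All cultures held recombinant human IL-2, so the 4 control cultures differ from the 3 treated ones by murine recombinant IL-12 alone, as far as the labels say. Ag-B7 with IFNa/b, a universal type I interferon, at 48 h (3 arrays) and naive cells at 0 h (3 arrays) are used below for reference, as are single arrays of Ag-B7 with and without IL-12 at 24 h and at 72 h. The labels call the replicates biological and do not say whether mice were pooled, so the p-values measure the spread between these samples.

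IL-12 is a cytokine of dendritic cells and macrophages that serves CD8 T cells as a further signal beside antigen and costimulation. Its receptor has the chains IL-12Rb1 and IL-12Rb2, which work with the kinases Tyk2 and Jak2 and phosphorylate chiefly the transcription factor Stat4. Stat4 is known for raising interferon-gamma, the IL-18 receptor and effector functions in T and NK cells, and IL-12 and IL-18 act together on interferon-gamma through p38 kinases and Gadd45 proteins. Interferons signal through other receptors and induce antiviral genes, among them the immunity-related GTPases.

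Values are Affymetrix MAS5 intensities, linear fluorescence signals per probe set. They were analysed as log2(intensity + 46.4), on which fold changes of dim genes are understated. A gene was called when its limma adjusted p (Benjamini-Hochberg, two-sided, over 6279 genes) was below 0.05 in a fit of the 13 replicated arrays, and the words rose and fell are kept for such genes. Errors after ± are limma standard errors. A second, paired fit took the 7 arrays alone and compared each IL-12 array with the Ag-B7 array of its own replicate number; Ag-B7 replicate 4 has no partner and does not enter its differences. It was added because the same-numbered arrays deviated together, with correlations of 0.28 in each of the 3 pairs, and its value is printed where it changes a call. The 7 arrays had 3' to 5' actin ratios of 1.05 to 1.11 and median intensities of 237 to 316. The mean log2 intensity of the spike-in controls was 13.18 on IL-12 replicate 2 and 12.26 to 12.72 on the other arrays. The 3 naive arrays, which add to the spread of the 13-array fit, had actin ratios of 1.13 to 2.06 and spike-in means of 13.40 to 14.86. Arrays of the same group correlated at 0.948 to 0.956 for Ag-B7 and at 0.948 to 0.960 for IL-12, and arrays of different groups at 0.931 to 0.962.

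At 48 h, 24 genes rose with IL-12 (0.382% of those tested) and 15 fell (0.239%), together 39 genes (0.621%). After centring each array on its median the split was 17 higher and 6 lower. All but 1 of the 39 changed by at least 2-fold, and the arrays of the groups overlapped for a single called gene, Serpinb9. The genes whose arrays did not overlap were more numerous, 223 with IL-12 higher (3.55%) and 227 with IL-12 lower (3.62%). With so few arrays some genes separate by chance alone, so non-overlap is given here and below as a description and is no test. The paired fit called 108 genes higher (1.72%) and 83 lower (1.32%), and these included 38 of the 39. With the block placed in the fit of 13 arrays fewer were kept, 24 of the 39 with all groups blocked by number and 26 with only the compared groups paired. Scaling on spike-in controls, in which IL-12 replicate 2 stands apart, left 7 of the 39 calls, Ctla2b, Hopx, Ifng, Prnp and Usp18 higher and Ephx1 and Iigp1 lower. Without that array, on the intensities as deposited, there were 22 calls. Between 16 and 31 genes were called when 1 of the 7 arrays was left out, the fewest without IL-12 replicate 1. The 8 genes called whichever array was left out were Ifng, Usp18, Prnp, Hopx, Furin and Gem among the risers and Iigp1 and Rgs10 among the fallers. The median log2 difference of all genes tested was -0.01 (-0.21 when arrays were scaled on their spike-in controls, under which all 39 kept their sign).

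**Figure D1:**
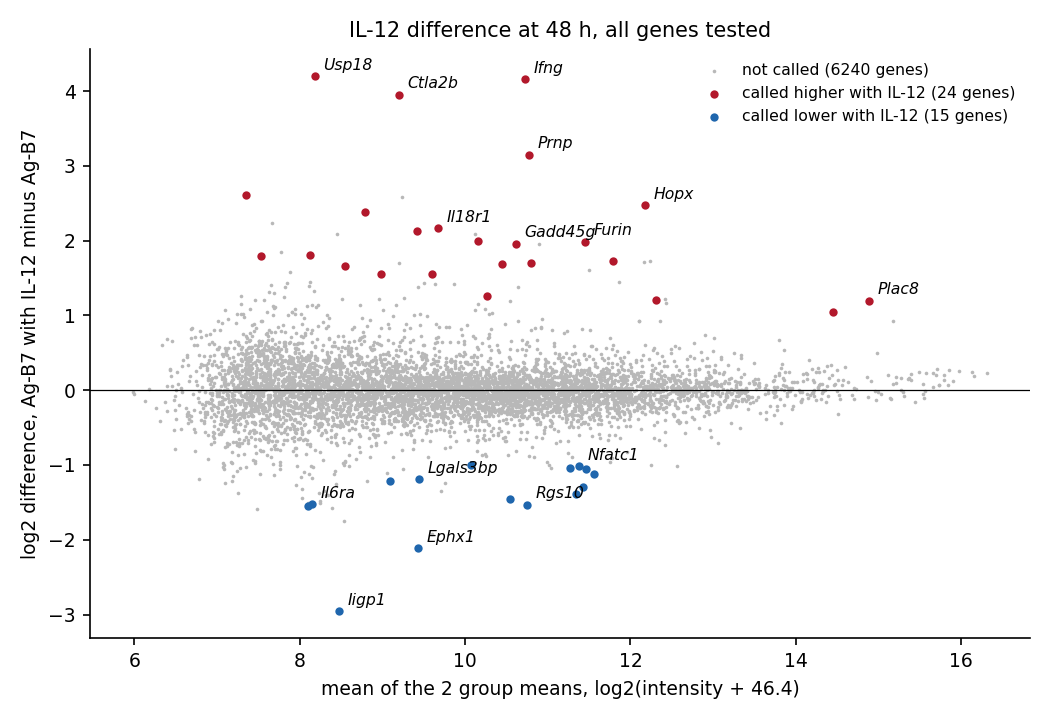
Log2 difference between Ag-B7 with IL-12 and Ag-B7 alone at 48 h (vertical axis) against the mean log2 level of both groups (horizontal axis), 1 point for each of 6279 genes. The 24 called higher are red, the 15 called lower blue and the others grey; Usp18, Ifng and Ctla2b lie highest and Iigp1 lowest.

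Ifng was the cytokine gene that rose. It encodes interferon-gamma, which activates macrophages and antigen presentation. Its intensity was 100.2, 234, 469.7 and 1171 on Ag-B7 replicates 1 to 4 and 7015, 6161 and 8274 on IL-12 replicates 1 to 3. Every IL-12 array lay above every Ag-B7 array, although the Ag-B7 arrays themselves differed widely and replicate 4 was the highest of them. Ifng rose by 4.16 ± 0.49 on the log2 scale (17.8-fold, n = 3 and 4, limma adjusted p = 0.000243), and the log2 differences of the 3 pairs were 5.59, 4.47 and 4.01. These are levels in RNA pooled from many cells, in which fewer expressing cells and less RNA per cell cannot be told apart. Of 18 effector cytokine and chemokine genes tested, Ifng was the only one called, and the list's median difference was -0.05. Of all genes tested, 0.621% were called. Tnf, the gene of tumour necrosis factor, lay at 97.1 to 576 without and 76 to 271 with IL-12, and the groups overlapped. Lta, which encodes lymphotoxin alpha, was 0.83 ± 0.60 higher on the log2 scale without a call (limma adjusted p = 0.998) and passed only the paired fit (1.41 ± 0.22, limma adjusted p = 0.00776). Lta lay at 495, 1487, 1046 and 4877 without and at 846, 3965 and 4742 with IL-12. Ag-B7 replicate 4, which the paired differences leave out, was above every IL-12 array for Lta.

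The promoter of Ifng is shown beside those of Gadd45g, which also rose, and of Ifi47, an interferon-inducible GTPase gene that fell, since they mark both directions of the response. Each is the RefSeq stretch from 250 bases before to 50 bases after the start (build GRCm38.p6, plus strand for all 3), at chr10:118440796-118441095 for Ifng, chr13:51846425-51846724 for Gadd45g and chr11:49076337-49076636 for Ifi47. Capitals mark a match to TTCNNNGAA (a STAT motif), GAAANNGAA (the core of the interferon-stimulated response element) or TGANTCA (an AP-1 motif), searched on both strands.
Ifng: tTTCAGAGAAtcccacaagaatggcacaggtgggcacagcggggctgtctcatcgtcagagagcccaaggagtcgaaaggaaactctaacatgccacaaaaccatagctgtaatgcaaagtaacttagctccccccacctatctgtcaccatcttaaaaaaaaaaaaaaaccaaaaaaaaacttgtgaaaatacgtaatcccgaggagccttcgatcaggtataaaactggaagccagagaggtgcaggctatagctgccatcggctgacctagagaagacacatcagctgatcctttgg
Gadd45g: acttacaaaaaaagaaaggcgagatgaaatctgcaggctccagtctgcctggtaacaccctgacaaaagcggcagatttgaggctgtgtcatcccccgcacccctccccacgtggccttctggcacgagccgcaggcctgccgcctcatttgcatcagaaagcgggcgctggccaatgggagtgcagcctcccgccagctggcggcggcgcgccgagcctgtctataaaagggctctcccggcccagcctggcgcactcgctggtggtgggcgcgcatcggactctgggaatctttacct
Ifi47: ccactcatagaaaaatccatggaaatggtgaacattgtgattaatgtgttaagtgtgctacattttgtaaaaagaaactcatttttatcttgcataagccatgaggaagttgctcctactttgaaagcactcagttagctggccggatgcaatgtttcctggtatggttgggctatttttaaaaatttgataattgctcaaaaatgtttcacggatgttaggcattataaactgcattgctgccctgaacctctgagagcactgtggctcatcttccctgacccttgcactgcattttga
The Ifng promoter held 1 STAT match, TTCAGAGAA, and the other two windows held none of the 3 motifs. Of the 20 risers with a promoter entry, 3 held a STAT match (15%), 4 the interferon core (20%) and 5 an AP-1 match (25%). Of 12 fallers with an entry, 0 held a STAT or an AP-1 match and 2 held the interferon core (16.7%). The shares over the promoters of 5058 tested genes were 7.1%, 7.02% and 5.71%, and over all 27025 genes with a promoter entry 8.47%, 8.57% and 7.93%. The STAT matches were those of Ifng, Emp1 and Ifitm3. A match in these windows is a description of letters and was not tested for binding.

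In the list of IL-12 and IL-18 receptor signalling genes, 2 of 21 tested rose, Il18r1 and Gadd45g, and 0 fell. The list's median was 0.26 on the log2 scale, and 0.382% of all genes tested rose. Il18r1, the binding chain of the IL-18 receptor, lay at 610.3, 163, 544 and 223 on the Ag-B7 arrays and at 1844, 1588 and 1635 on the IL-12 arrays. The IL-12 arrays were close to each other and all above the control arrays, whose replicates 1 and 3 were the higher ones. Il18r1 rose by 2.17 ± 0.38 (4.50-fold, limma adjusted p = 0.0123). Its call was lost without any of the IL-12 arrays (limma adjusted p 0.0509 to 0.0833). Il18rap, the accessory chain of that receptor, differed by 0.99 ± 0.47 and passed only the paired fit (1.14 ± 0.21, limma adjusted p = 0.0186). Gadd45g, which activates the p38 kinase pathway upstream of interferon-gamma, lay at 548, 661, 645 and 1329 without and at 5326, 1910.3 and 2771 with IL-12. IL-12 replicate 1 was the highest, and the groups did not overlap. Gadd45g rose by 1.96 ± 0.34 (limma adjusted p = 0.012), and the call was lost without IL-12 replicate 1 (limma adjusted p = 0.0968).

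The receptor for IL-12 itself was measured by both chains. Il12rb2, the signalling chain, lay at 494, 1261, 773 and 1585 on the Ag-B7 arrays and at 2166, 2719.9 and 2721 on the IL-12 arrays. The groups did not overlap, and each IL-12 array was above its pair, by log2 differences of 2.03, 1.08 and 1.76. The difference was 1.38 ± 0.46 in the fit of 13 arrays (limma adjusted p = 0.405) and 1.62 ± 0.18 in the paired fit, which called it (limma adjusted p = 0.00114). Il12rb1, the chain shared with the IL-23 receptor, differed by 0.26 ± 0.31 with overlapping arrays. Downstream, Stat4 differed by -0.27 ± 0.30, Stat3 by 0.33 ± 0.24, Tyk2 by 0.07 ± 0.32 and Jak2 by -0.16 ± 0.24, and none was called in either fit. The feedback inhibitors Socs1, Socs2, Socs3 and Cish, which damp cytokine receptors, were not called either, with Socs3 at 0.83 ± 0.26 (limma adjusted p = 0.323) and Socs2 at -0.69 ± 0.46. A dimmer probe set of Socs3 gave 2.08, and with the mean of its probe sets Socs3 was called, at 1.46 (limma adjusted p = 0.0425). For Tyk2, Jak2, Socs1, Tnf and Il12rb1 the sign changed under at least 1 alternative setting or left-out array.

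**Figure D2:**
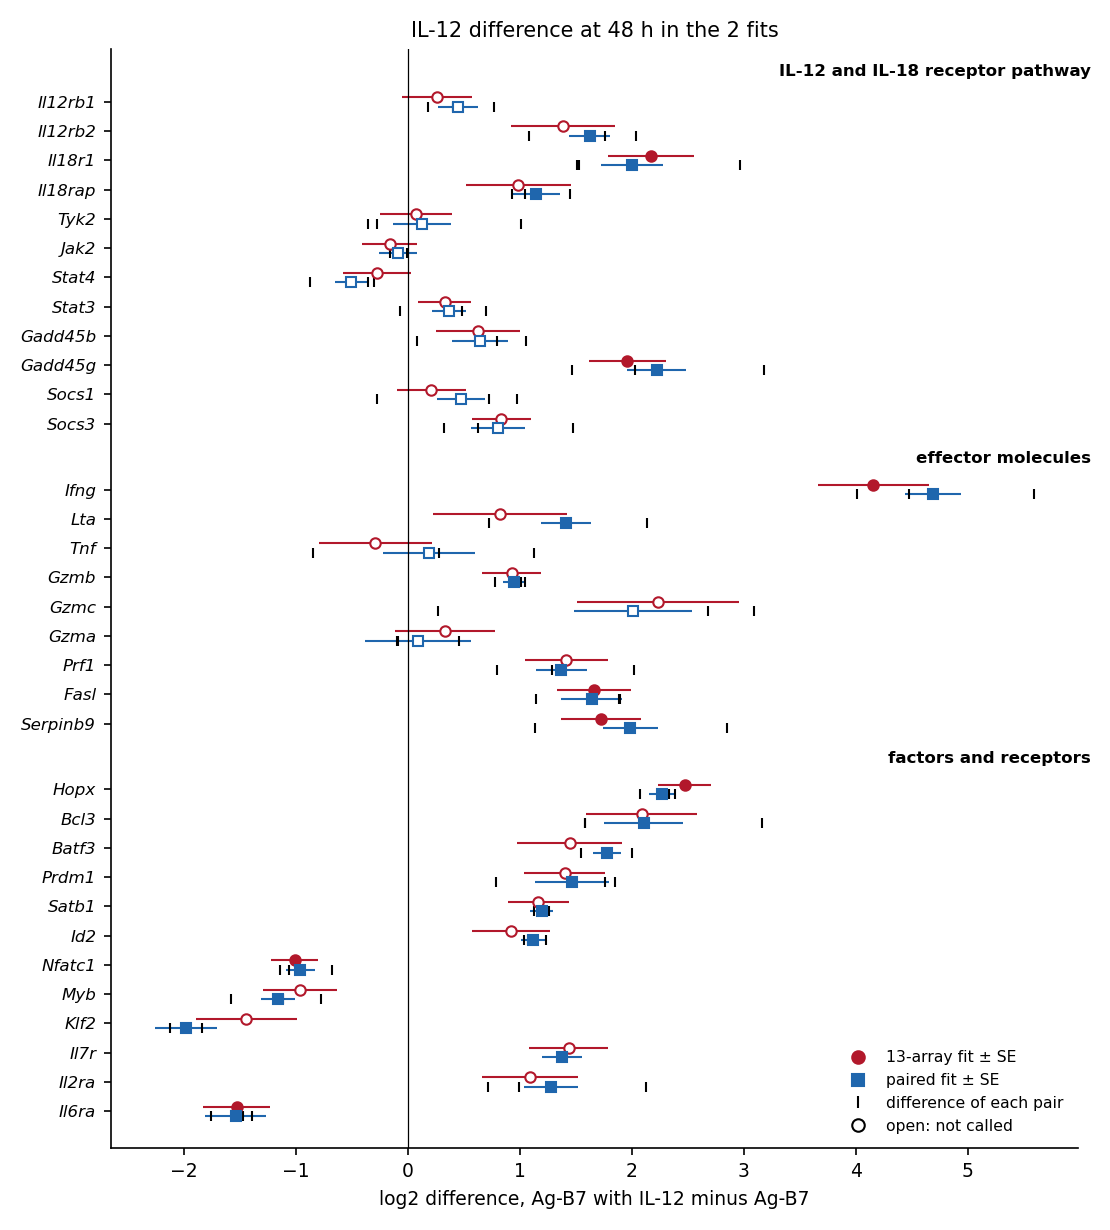
Log2 difference between Ag-B7 with IL-12 and Ag-B7 alone at 48 h (horizontal axis) for genes of the IL-12 pathway, effector molecules, and factors and receptors (vertical axis). Red circles give the fit of 13 arrays and blue squares the paired fit, each ± SE, black ticks the difference of each of the 3 pairs, and open symbols a gene not called; Il12rb2, Gzmb, Prf1 and Bcl3 are open in the first fit and filled in the second.

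The cytotoxic list had 2 risers among 20 tested genes, Fasl and Serpinb9, no faller, and a median log2 difference of 0.46. Of all genes tested, 0.382% rose. Fasl, the ligand that triggers the death receptor Fas, lay at 149 to 196 on the Ag-B7 arrays and at 721, 387 and 855 on the IL-12 arrays. The groups did not overlap, and Fasl rose by 1.67 ± 0.33 (limma adjusted p = 0.0245). Leaving out any array but IL-12 replicate 2 ended its call (highest limma adjusted p 0.195). Serpinb9, the inhibitor that protects cells from their own granzyme B, lay at 1359.9, 1459.9, 1992 and 3315 without and at 10090.1, 3264 and 7975 with IL-12. IL-12 replicate 2 lay just under Ag-B7 replicate 4, so the groups overlapped, but Serpinb9 was called (1.73 ± 0.35, limma adjusted p = 0.0294). Its call was lost without any of 5 of the 7 arrays (highest limma adjusted p 0.221, without IL-12 replicate 1).

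Of the granule genes, the transcripts of Gzmb and Prf1 were higher on the IL-12 arrays without passing the fit of 13 arrays. Gzmb, the main granzyme of CD8 cells, already lay at 20017, 30967, 29806 and 27778 without IL-12 and reached 41446, 53131 and 60005 with it. All 3 pairs agreed closely, with log2 differences of 1.05, 0.78 and 1.01. Gzmb differed by 0.93 ± 0.27 (limma adjusted p = 0.207) and passed only the paired fit (0.94 ± 0.10, limma adjusted p = 0.00073). Prf1, the pore-forming perforin, lay at 249.6, 856, 720.2 and 473 without and at 1157, 2159 and 1285 with IL-12, again with no overlap. Its difference was 1.41 ± 0.37 (limma adjusted p = 0.138), and only the paired fit called it (1.37 ± 0.23, limma adjusted p = 0.0108). Gzmc, a further granzyme, was uneven: 1264 and 722 on IL-12 replicates 1 and 3, but 39.3 on replicate 2, inside the control range of 12.5 to 159. Gzmc was not called in either fit (2.23 ± 0.72, limma adjusted p = 0.358). Without IL-12 replicate 2 it was called, at 3.42 (limma adjusted p = 0.00774), without replicate 1 it was 1.45, and its dimmer probe set gave -0.06. Gzma stayed dim in both groups (at most 126) and overlapped. Probe sets of the granzymes may not tell close relatives apart.

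The largest rises outside the cytokine pathway were in genes of varied function. Ctla2b, which encodes an inhibitor of cysteine proteases, lay at 572, 123, 40.6 and 9.54 without and at 4280.2, 1315 and 2085 with IL-12. The control arrays spanned a wide range and still did not reach the IL-12 arrays. Ctla2b rose by 3.95 ± 0.69 (limma adjusted p = 0.012) and lost its call without IL-12 replicate 1 or 3 (limma adjusted p 0.0968 and 0.0516). Prnp, the prion protein gene, had even controls, 650.4, 503, 482 and 546, and lay at 8379, 4267 and 3878 with IL-12. It rose by 3.15 ± 0.36 (8.88-fold, limma adjusted p = 0.000192). Furin, a protease that cleaves proproteins such as that of TGF-beta, had even values, at 1528, 1138, 1413 and 1379.9 without and 6291, 4515 and 5907 with IL-12. It rose by 1.99 ± 0.19 (3.96-fold, limma adjusted p = 3.12e-05), and the 3 pairs gave 2.01, 1.95 and 2.03.

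Hopx, a homeodomain cofactor without DNA binding of its own that is known in effector and memory T cells, lay at 2584, 1927, 2202 and 1226 without and at 13186, 10281 and 9442 with IL-12. The lowest IL-12 array was far above the highest control. Hopx rose by 2.47 ± 0.24 (5.55-fold, limma adjusted p = 3.12e-05). Gem and Rrad, small GTPases of the same family, rose by 2.13 ± 0.32 and 1.26 ± 0.25. The membrane protein gene Emp1 rose by 1.99 ± 0.35, the retinoic acid binding protein gene Crabp2 by 2.38 ± 0.39, the acid-sensing receptor gene Gpr65 by 1.70 ± 0.28 and the semaphorin gene Sema4f by 1.68 ± 0.32. Emp1 and Sema4f were highest on IL-12 replicate 2 (4545 and 5366), which lay above 1511 and 1595 for Emp1 and 1791 and 1538 for Sema4f on replicates 1 and 3. Without that array Emp1 differed by 1.49 and Sema4f by 1.13, and both calls were lost (limma adjusted p = 0.0565 for each). Sema4f also lost its call without Ag-B7 replicate 1, 2 or 4 (highest limma adjusted p 0.063). Crabp2 and Gpr65 lost their calls without IL-12 replicate 1 (limma adjusted p = 0.0747 and 0.0535), and Rrad without any of 5 arrays (highest limma adjusted p 0.195). H2-Q10, a nonclassical class I gene whose probe set may read relatives, rose by 1.55 ± 0.33, Traf4, a signalling adaptor, by 1.21 ± 0.26, Plac8 by 1.20 ± 0.22 and Cytip, a regulator of lymphocyte adhesion, by 1.05 ± 0.22. Each of these last 4 lost its call without at least 4 of the 7 arrays.

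Mmp10, Ifitm3, Prl, Fah and Synpo were also called, with both group means below that of the median gene, and are named after their values were seen. Mmp10, a matrix metalloproteinase gene, rose by 2.61 ± 0.47, from at most 50.1 without IL-12 to between 169.5 and 567.5 with it. Mmp10 passed the brightness filter through the IL-12 arrays alone, so its call is a description and no independent support. With the filter set at the array median it was no longer tested. The control values lay mostly under the pseudocount, which therefore affects the size of the difference. Ifitm3, an interferon-induced membrane protein gene, rose by 1.80 ± 0.36, Prl by 1.79 ± 0.36 and Fah, an enzyme gene of tyrosine breakdown, by 1.56 ± 0.32. Prl was the only call of the 39 that the paired fit did not share (1.67, limma adjusted p = 0.051). Synpo, an actin-binding protein gene, fell by 1.55 ± 0.33. Fah and Synpo lost their calls without any of the 7 arrays, Ifitm3 and Prl without any of 5 and Mmp10 without any of 3.

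**Figure D3:**
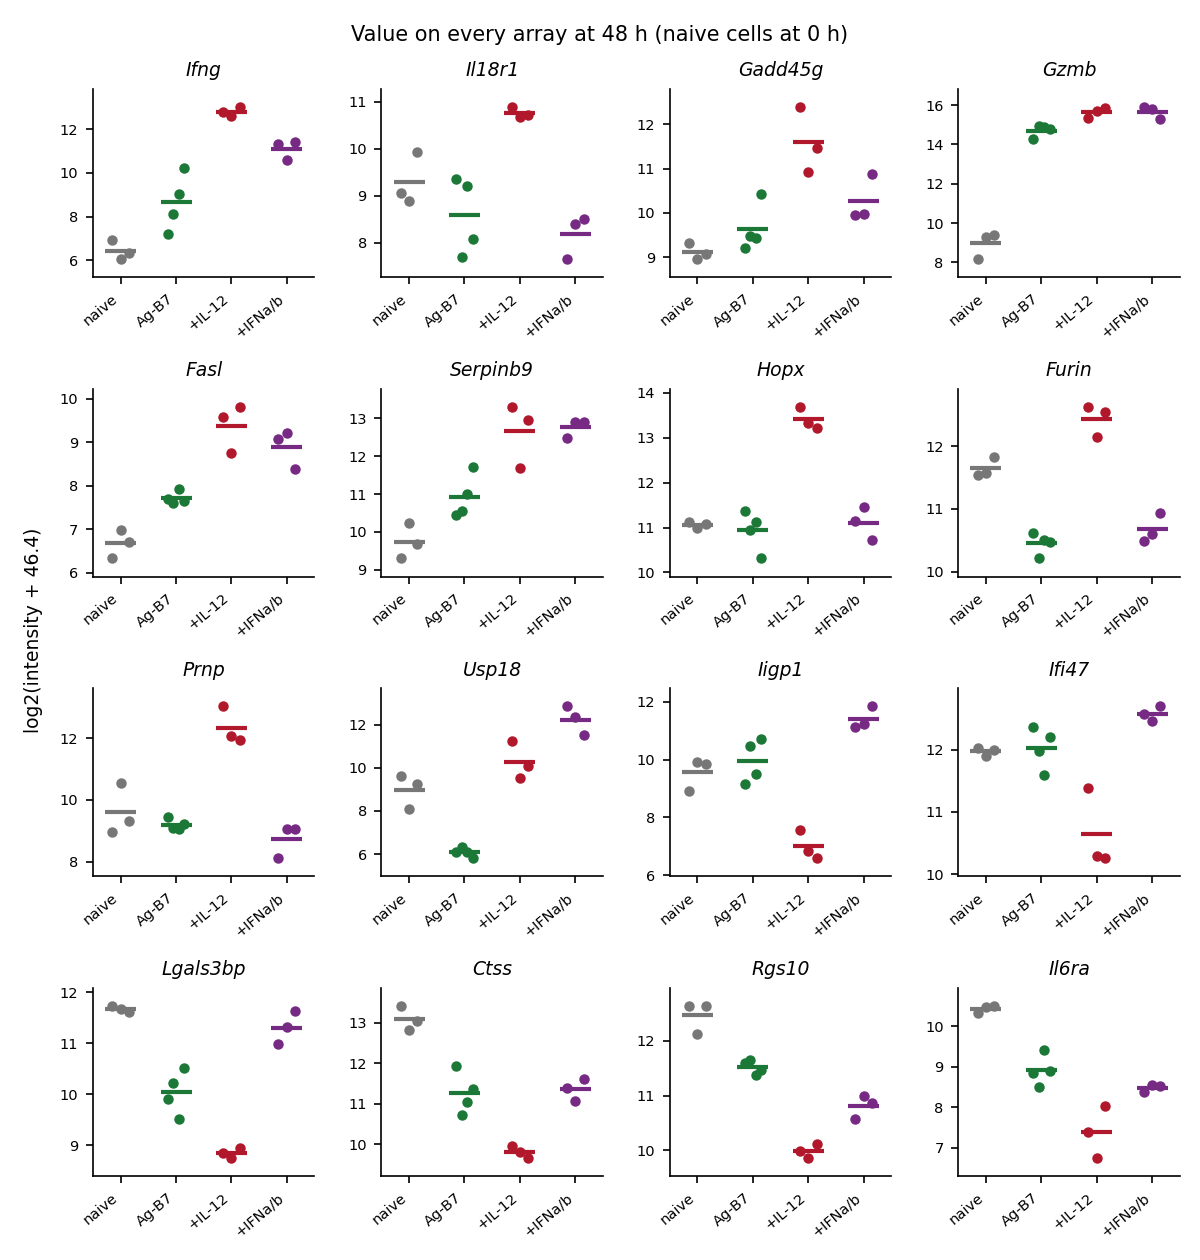
Log2(intensity + 46.4) on every array (vertical axis, 1 panel a gene) for naive cells at 0 h and for Ag-B7 alone, with IL-12 and with IFNa/b at 48 h (horizontal axis); points are arrays and bars group means. Hopx, Furin and Prnp are highest on the 3 IL-12 arrays, with Furin in naive cells between Ag-B7 alone and IL-12, while Iigp1, Ifi47, Lgals3bp and Ctss are lowest there.

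Among 34 transcription factors of CD8 cell fate, Hopx rose and Nfatc1 fell in the fit of 13 arrays, and the median difference was 0.12. Over all genes tested, 0.382% rose and 0.239% fell. Nfatc1, a factor driven by calcium and the antigen receptor, lay at 3842, 3538, 3450.0 and 4182 without and at 1814, 1583 and 2147 with IL-12. It fell by 1.01 ± 0.21 with no overlap (limma adjusted p = 0.0294), and the call was lost without any of the 7 arrays (highest limma adjusted p 0.19). The paired fit called 7 of the 34 higher and 3 lower, beside 1.72% and 1.32% of all genes tested. Bcl3, a partner of NF-kappaB linked to T cell survival, lay at 116 to 129.9 on the controls and at 476, 1402 and 445 with IL-12. It passed only the paired fit (2.11 ± 0.35, limma adjusted p = 0.0109), beside 2.09 ± 0.50 and a limma adjusted p of 0.0753 in the fit of 13 arrays. Id2, which supports effector differentiation, differed by 1.12 ± 0.11 in the paired fit (limma adjusted p = 0.000505) and by 0.92 ± 0.35 in the other (limma adjusted p = 0.54). Satb1, a chromatin organiser, lay at 3226 to 4338 without and 7118 to 10449 with IL-12, and its limma adjusted p was 0.0711 in the fit of 13 arrays and 0.000287 in the paired fit. Batf3, Prdm1, which encodes the effector factor Blimp-1, and Bhlhe40 also passed only the paired fit, at 1.78 ± 0.12, 1.47 ± 0.33 and 1.50 ± 0.30 (limma adjusted p = 5.56e-05, 0.0421 and 0.0267). Eomes, a T-box factor of effector and memory cells, overlapped between groups (1242, 146, 257 and 234 against 1091, 239.9 and 610.0) and was not called in either fit. The pairs were uneven for Eomes, at -0.18, 0.58 and 1.12.

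Cytokine receptors of the common gamma, gp130 and interferon families had 1 faller among 19 tested and no riser. Over all genes tested, 0.239% fell and 0.382% rose. Il6ra, the IL-6 binding chain, lay at 415, 317, 637 and 426 without and at 121, 61.2 and 215 with IL-12. All 3 IL-12 arrays were below all 4 control arrays, and Il6ra fell by 1.53 ± 0.30 (limma adjusted p = 0.0244; highest 0.164 with an array left out, without IL-12 replicate 2). The IL-2 and IL-7 receptor chains lay higher: Il7r at 309.6 to 675 without and 864 to 1825 with IL-12, and Il2ra at 468 to 1179.9 without and 1328 to 2198 with it. They passed only the paired fit, with Il7r at 1.38 ± 0.18 (limma adjusted p = 0.00275, and 0.0916 in the fit of 13 arrays) and Il2ra at 1.28 ± 0.24 (limma adjusted p = 0.0195, and 0.609). Il7r is known to mark memory precursors and Il2ra strong early stimulation.

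Among interferon-inducible genes, Usp18 and Ifitm3 (described above) rose and Iigp1, Ifi47 and Lgals3bp fell with IL-12. Usp18, a protease that removes ISG15 and blocks the type I interferon receptor, lay at 21.4, 34.2, 22.9 and 10.1 without and at 2359, 692 and 1054 with IL-12. Usp18 rose by 4.20 ± 0.41 (limma adjusted p = 3.26e-05). All 4 control values lie under the pseudocount, which therefore sets the size of the difference: it was 5.03 with a pseudocount of 16 and 2.68 with 200, called in both. Of 27 antiviral genes of the type I interferon response, Usp18 rose and Lgals3bp fell, and 19 had a difference below 0 (median -0.27), beside 3233 of the 6279 genes tested. Of 18 interferon-inducible GTPases and interferon-gamma targets, 2 fell, Iigp1 and Ifi47, and 0 rose, with 12 below 0 (median -0.17). Beside both lists, 0.382% of all genes tested rose and 0.239% fell. Iigp1, an immunity-related GTPase active against intracellular parasites, lay at 529, 1362, 678 and 1614 without and at 144, 67.7 and 50.6 with IL-12. It fell by 2.95 ± 0.38 (limma adjusted p = 0.000501), and a dimmer probe set of Iigp1 gave -1.74.

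Ifi47, a further GTPase of that family, lay at 5230.3, 4007, 3039 and 4677 without and at 2624, 1207 and 1178 with IL-12, and fell by 1.39 ± 0.25 (limma adjusted p = 0.0123). IL-12 replicate 1 was the nearest to the controls, and the call was lost without Ag-B7 replicate 1 or IL-12 replicate 2 or 3 (highest limma adjusted p 0.1). Lgals3bp, a secreted glycoprotein that binds galectins, lay at 683 to 1407 without and at 387 to 445 with IL-12, and fell by 1.18 ± 0.23 (limma adjusted p = 0.0229; the call was lost without any of 6 arrays, highest 0.116). Irgm1, Ifi204 and Ifi27l2a passed only the paired fit, at -1.06, -1.77 and -1.62 (limma adjusted p = 0.0185, 0.00754 and 0.00279). Ifi204 was the lowest of the antiviral list in the fit of 13 arrays, at -1.75 ± 0.48 (limma adjusted p = 0.181). In the list of MHC class I presentation genes, 0 of 13 were called in the fit of 13 arrays, and Tapbp, Psmb9 and Psme1 were lower in the paired fit alone. Tapbp, tapasin of the peptide-loading complex, lay at 5641 to 8602 without and at 3244 to 4813 with IL-12 (-0.73 ± 0.23, limma adjusted p = 0.323; paired -0.84 ± 0.10, limma adjusted p = 0.00153). The class I heavy chain genes H2-K1 and H2-D1 and B2m differed by -0.05 ± 0.16, -0.03 ± 0.18 and 0.03 ± 0.16.

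**Figure D4:**
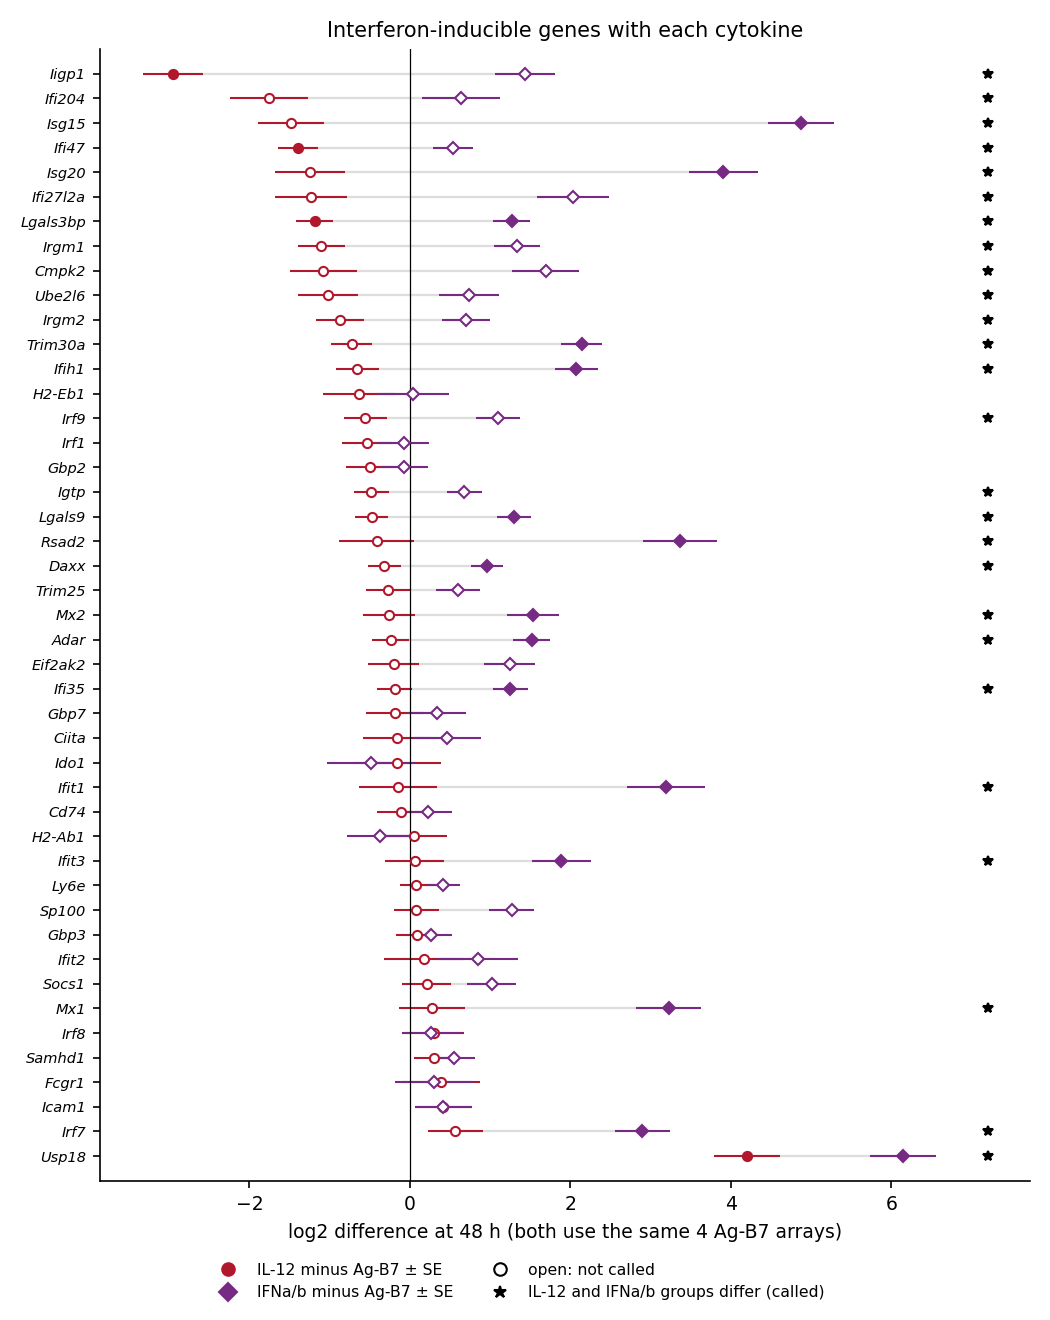
Log2 difference from Ag-B7 alone at 48 h (horizontal axis) with IL-12 (red circles) and with IFNa/b (purple diamonds), ± SE, for the 45 tested genes of the interferon lists (vertical axis), sorted by the IL-12 difference; both use the same 4 control arrays. Open symbols were not called against Ag-B7, and stars mark the 26 genes at which the IL-12 and IFNa/b groups differ, all with IL-12 lower. That direction could be foreseen, since the lists hold genes that interferons induce.

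The IL-12 and IFNa/b groups were compared with each other directly, 3 arrays against 3 in the same fit. The difference itself does not use the Ag-B7 arrays. Its standard error and adjusted p do, since the fit takes the spread from all of its groups, Ag-B7 and naive among them. Over all genes, 18 were higher with IL-12 (0.287%) and 41 lower (0.653%). Of the 24 genes that rose with IL-12, 11 were above the IFNa/b group: Crabp2, Ctla2b, Emp1, Furin, Gem, Hopx, Il18r1, Mmp10, Prnp, Rrad and Sema4f. The risers, like the fallers below, had been picked by their values on these same 3 IL-12 arrays. A lean towards the direction of the call could thus be foreseen, and these counts are no independent evidence. Furin lay at 1391, 1514 and 1919 with IFNa/b, which is 1.76 ± 0.20 log2 units below the IL-12 group (limma adjusted p = 5.9e-05), and Prnp at 231, 485 and 486 (3.61 ± 0.38, limma adjusted p = 3.49e-05). Usp18 and Ifitm3 were below the IFNa/b group, Usp18 by -1.95 ± 0.44 (limma adjusted p = 0.0454). For the other 11 risers the groups were not called different. Ifng lay at 2534, 1498 and 2742 with IFNa/b, under every IL-12 array, at a difference of 1.68 ± 0.53 that was not called (limma adjusted p = 0.306). Gpr65, Plac8 and Serpinb9 differed between the cytokines by 0.29 ± 0.30, -0.05 ± 0.24 and -0.11 ± 0.38.

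Of the 15 genes that fell with IL-12, Ctss, Ifi47, Iigp1, Lgals3bp and Slfn1 were below the IFNa/b group. Iigp1 lay at 2168, 2361 and 3600.3 with IFNa/b, -4.39 ± 0.40 from the IL-12 group (limma adjusted p = 1.15e-05). Set side by side against the shared Ag-B7 arrays, Lgals3bp differed by -1.18 with IL-12 and 1.27 with IFNa/b, and Slfn1 by -1.21 and 1.42. Of the 45 interferon-inducible genes tested, 26 were lower with IL-12 than with IFNa/b and 0 higher, Isg15 by -6.36 and Rsad2 by -3.78. These genes were listed because interferons induce them, and the other group received type I interferon. The direction of that count could thus be foreseen, and it is no evidence about IL-12. Against Ag-B7 alone, Isg15, the ubiquitin-like modifier that Usp18 removes, differed by -1.48 ± 0.41 with IL-12 and was not called (limma adjusted p = 0.177), and Rsad2, the antiviral viperin, by -0.41 ± 0.47.

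The other fallers had varied functions. Rgs10, a regulator that shortens G protein signals, lay at 3048, 3178, 2593 and 2777 without and at 965, 888 and 1064 with IL-12. Both groups were tight, and Rgs10 fell by 1.53 ± 0.18 (limma adjusted p = 0.000243). A dimmer probe set of Rgs10 gave -1.08, and the dimmest, near the bottom of the scale, 0.51. Dgka, the kinase that removes diacylglycerol and so dampens antigen receptor signals, lay at 3619.6 to 5105 without and 1901 to 2176 with IL-12, and fell by 1.12 ± 0.21 (limma adjusted p = 0.0207). Ctss, the lysosomal protease cathepsin S, lay at 3894, 1649, 2069.5 and 2584 without and at 947, 854 and 771 with IL-12, and fell by 1.45 ± 0.25 (limma adjusted p = 0.0111; 0.0674 without IL-12 replicate 3). Ephx1, a detoxifying hydrolase, lay at 1098 to 1665 without and 151 to 470.3 with IL-12, and fell by 2.11 ± 0.43 (limma adjusted p = 0.0294). Itm2a, a membrane protein of activated T cells, lay at 3676 to 4842 without and 1463 to 2022 with it, and fell by 1.30 ± 0.25. Dgka, Ephx1 and Itm2a lost their calls without 5 or 6 of the 7 arrays.

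Capg, an actin-capping protein gene, Pdlim1, a cytoskeletal adaptor gene, and Tmc6 fell by 1.06 ± 0.18, 1.04 ± 0.20 and 1.00 ± 0.21. The control values of Pdlim1 were nearly equal, 3531, 3524, 3469 and 3439, and the IL-12 values were 1537, 1961 and 1540.2. Dimmer probe sets of Capg gave differences of 0.003 and -0.005, and the dimmer one of Pdlim1 gave 0.05, so these falls rest on the brightest probe set. With the mean of all probe sets of a gene, Capg, Pdlim1 and Rgs10 were not called. Capg also lost its call without IL-12 replicate 1 (limma adjusted p = 0.0833), Pdlim1 without any of 5 arrays and Tmc6 without any of the 7. Slfn1, a Schlafen gene of quiescent T cells, lay at 611 to 931 without and 177 to 506 with IL-12, and fell by 1.21 ± 0.26 (limma adjusted p = 0.043; highest 0.269 with an array left out, without IL-12 replicate 2). Of 27 tested genes listed as linked to naive or quiescent T cells, 6 fell and 0 rose, with a median of -0.35. The 6 were Rgs10, Il6ra, Itm2a, Slfn1, Dgka and Pdlim1. Of all genes tested, 0.239% fell. The paired fit called 9 of the 27 lower and 2 higher, Il7r and Satb1, beside 1.32% and 1.72% of all genes tested. Itm2a was lower in naive cells than in either group, at a mean log2 level of 9.99 against 12.08 without and 10.78 with IL-12. The list's name thus does not hold for Itm2a in these data. That list was drawn up with results of these data in view and holds genes already known to fall in them, so its count is no independent evidence. The lymph node receptor gene Ccr7 was -1.06 ± 0.39 in the fit of 13 arrays (limma adjusted p = 0.509) and -1.27 ± 0.14 in the paired fit (limma adjusted p = 0.00114), with each pair lower (-1.08, -1.05 and -1.67). The arrays of the groups overlapped for Ccr7. Klf2, which drives lymph node recirculation, likewise passed only the paired fit (-1.98, limma adjusted p = 0.00397). On the log2 scale Klf2 lay at 9.59, 9.13, 9.16 and 7.14 on Ag-B7 replicates 1 to 4 and at 7.47, 7.16 and 7.32 with IL-12. Ag-B7 replicate 4, which the paired differences leave out, was thus below every IL-12 array for Klf2.

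The remaining lists showed few calls. Among 46 cell cycle and DNA replication genes, 0 were called in the fit of 13 arrays, the median was -0.09 and the paired fit called Stmn1 lower. Of 18 glycolysis genes, 31 MYC targets, 17 cholesterol and lipid genes, 24 homing receptors, 19 costimulatory and inhibitory receptors and 27 immediate early and stress genes, 0 were called in the same fit. The paired fit called 6 of the 27 stress genes higher and 0 lower, beside 1.72% and 1.32% of all genes tested. The 6 were Cdkn1a, a cell cycle inhibitor, the metallothioneins Mt1 and Mt2, Hmox1, Ier3 and Junb. Cdkn1a lay at 419, 1021, 999 and 1792 without and at 1458, 2376 and 3114 with IL-12, above its pair in each of 3 (1.69, 1.18 and 1.60; paired limma adjusted p = 0.000687, and 0.373 in the fit of 13 arrays). Mt1 lay at 4129, 5306, 2898 and 699 without and at 12677, 9036 and 5764 with IL-12, and Ag-B7 replicate 4 was far below the other controls. Hk2, the hexokinase of activated T cells, and Slc2a1, its glucose transporter partner, passed only the paired fit, at 1.13 ± 0.18 and 0.72 (limma adjusted p = 0.00783 and 0.0345).

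Single pairs of arrays gave the same comparison at 24 h and at 72 h, each with its own control and no replicate. At 24 h, 135 genes were past 2-fold higher with IL-12 (2.15%) and 80 lower (1.27%). At 72 h there were 328 higher (5.22%) and 260 lower (4.14%). Of the 39 genes called at 48 h, 35 had the same sign at 24 h and 37 at 72 h, beside 56% and 59.4% of all genes tested. Past 2-fold in that direction were 11 at 24 h and 27 at 72 h. The median log2 difference of the 24 risers was 0.59 at 24 h, 1.88 at 48 h and 1.90 at 72 h, and that of the 15 fallers -0.49, -1.30 and -1.49.

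Ifng was already high at 24 h, at 13398 with IL-12 against 709 without (log2 difference 4.15), and lay at 3534 against 237 at 72 h (3.66). Il18r1 differed by 2.54 at 24 h and 0.45 at 72 h, since the control array rose to 2032 at 72 h. Furin differed by 1.46 at each of the outer times. Hopx reached 14703 with IL-12 at 72 h, while its control had risen to 6325, a difference of 1.21. Iigp1 differed by -2.88 at 72 h. Gzmb, not called at 48 h, differed by 0.69 at 24 h and 1.81 at 72 h, and Mt1 by 0.26 and 3.69. Opposite in sign to 48 h were Mmp10 (-0.11), Fah (-0.35), H2-Q10 (-0.05) and Tmc6 (0.15) at 24 h, and Prl (-0.63) and Capg (0.45) at 72 h.

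**Figure D5:**
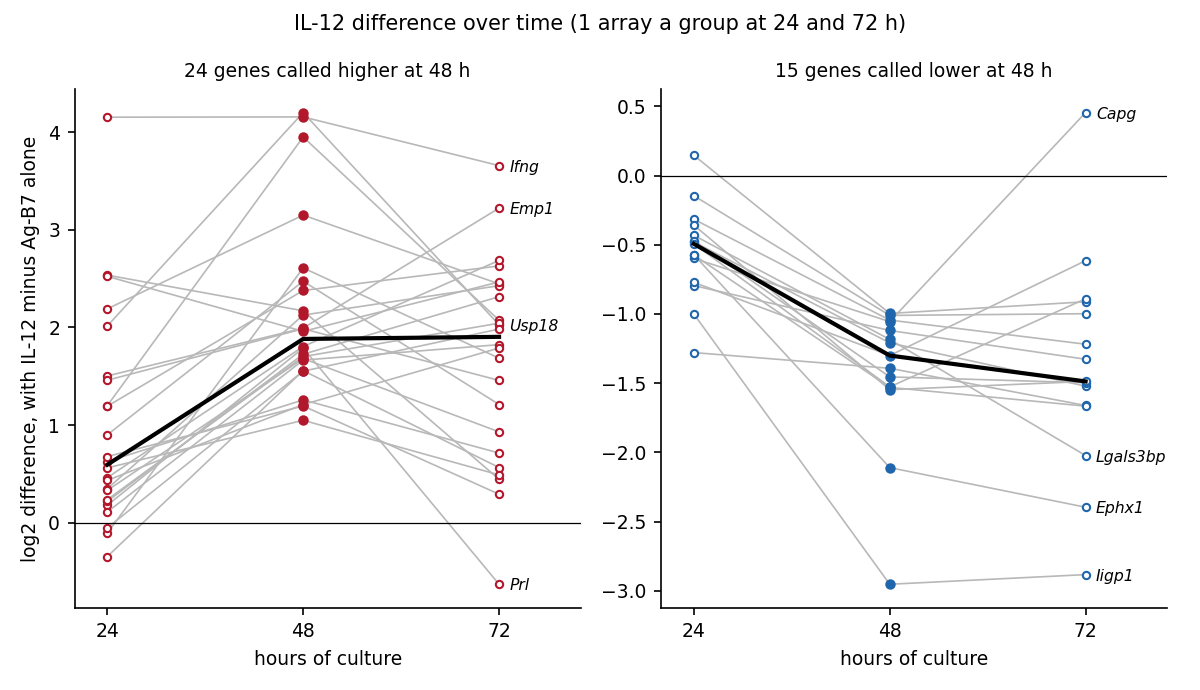
Log2 difference between Ag-B7 with and without IL-12 (vertical axis) at 24, 48 and 72 h (horizontal axis) for the 24 genes called higher (left) and the 15 called lower (right) at 48 h; grey lines join a gene, the black line joins the medians, and open points rest on 1 array a group. The median of the risers goes from 0.59 at 24 h to 1.90 at 72 h, and Prl and Capg cross 0 at 72 h.

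The called genes were also placed against naive cells. Of the 24 risers, the naive mean lay below both groups for 9, between them for 11 and above both for 4. Furin was between, at 2926, 3017 and 3575 in naive cells, Ifng was below, at 20.3 to 74.9, and Cytip was above, at 44885 to 63132. Of the 15 fallers, the naive mean was above both groups for 7, between for 6 and below both for 2, Itm2a and Capg. The 7 were Rgs10, Dgka, Ctss, Il6ra, Lgals3bp, Slfn1 and Tmc6.

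The markers of CD8 T cell identity were bright, and some markers of other cell types were measured as well. All 11 identity markers were above the 40th percentile on each of the 7 arrays, with Cd8a at 9093 to 12315 without and 6147 to 7361 with IL-12. Their summed level was 94892 to 113600 against 82476 to 99991. Cd8a, Cd8b1 and Cd3e were lower in the paired fit alone, Cd8a at -0.79 ± 0.12 (limma adjusted p = 0.00521; -0.71 ± 0.19 and 0.162 in the fit of 13 arrays). Of 18 myeloid and dendritic markers, Csf1r, Cd14, Ctss and Cst3 were above the 40th percentile on all 7 arrays and 8 on none of them, among these Lyz2 (3.79 to 24.8), Itgam, Adgre1, Fcer1g and Tyrobp. The summed level of the 18 was 7092 to 9216 without and 5886 to 7019 with IL-12, so the groups did not overlap. The lower sum was carried largely by Ctss, at 1649 to 3894 without and 771 to 947 with IL-12. Of the 18, 12 had a higher mean with IL-12. Ctss, which fell, was the only marker called in the fit of 13 arrays.

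Of 10 B cell markers, Ighm was above the 40th percentile on all 7 arrays and Cd22, Ebf1, Fcer2a and Cr2 on none. The summed level of the 10 was 4817 to 10795 without and 3846 to 5206 with IL-12, carried by Ighm (2362 to 9438). Ighm was lower in the paired fit alone. Its other bright probe set gave -1.38, and 7 dim ones had the opposite sign. Of 10 stromal and endothelial markers, Col1a1, Col1a2, Pecam1 and Bgn were above the 40th percentile on all 7 arrays, and the list summed to 2616 to 4456 without and 2523 to 3785 with IL-12. The 4 erythroid and platelet markers summed to 483 to 864 without and 596 to 906 with it, and the 4 markers of CD4 and gamma-delta T cells to 209 to 916 and 368 to 567. The 5 NK cell markers summed to 136 to 405 without and 367 to 561 with IL-12, and none was above the 40th percentile on all 7 arrays. The part of these markers in the results was not tested.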

How the data were processed

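RNA of 20 cultures or cell preparations was measured on single-colour Affymetrix arrays of 12488 probe sets. Per the submitters' processing notes, the authors computed intensities with MAS5, whose version is not stated in the sources used here. The deposited intensities are linear, have a 2% trimmed mean of 1000.5 to 1000.7 on each array, and were used as deposited. Probe sets with 1 gene symbol in the platform annotation (10833) gave 8251 genes, each by its brightest probe set. Genes above the 40th percentile of an array on at least 3 of the 13 replicated arrays were kept (6279). The pseudocount of 46.4 is the 20th percentile of all values.

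Values were fitted on the log2 scale with limma 3.58.1 in R 4.3.3, with group means of naive, Ag-B7, Ag-B7 with IL-12 and Ag-B7 with IFNa/b, a trended prior and Benjamini-Hochberg adjustment. The fit was tested on simulated data. The labels number the replicates of each group. Deviations from the group means of same-numbered Ag-B7 and IL-12 arrays correlated at 0.280, 0.279 and 0.276, and those of unlike number at -0.30 to 0.18. The numbers were therefore taken to pair these arrays, which the labels do not state. The paired fit (a replicate block over 7 arrays, 2 residual degrees of freedom) was added after seeing the data. Dixon's ratio was used to mark single arrays that stand apart.

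The comparison and the 20 gene lists and 8 marker lists were chosen with earlier results of these data known. Named genes were the called genes of largest rise and fall with non-overlapping arrays and a brighter mean above the median gene, the called members of each list or else its largest difference, the IL-12 and IL-18 receptor list, and preset effector genes (75 in all); others are named as list members or as said in the text. Alternatives varied the scaling, pseudocount, filter, probe set rule, prior and arrays used. The number of arrays limits the precision. Promoters are the first RefSeq entry of each gene.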

Additional observations from a re-analysis of the deposited data

Results flagged for a closer look

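On the log2 scale, 6 of 80 genes had 1 Ag-B7 array far from the other 3 at 48 h by Dixon's ratio at its 95% limit, and chance gives about 1 in 20 such groups. Ag-B7 replicate 2 was low for Crabp2 (6.37) and Jak2 (9.27) and high for Il7r (9.49). Ag-B7 replicate 4 was high for Tmc6 (10.76) and Cish (11.48), and Ag-B7 replicate 3 stood apart for Pias1 (8.24). Of these genes only Crabp2 and Tmc6 were called. Crabp2 kept its call without Ag-B7 replicate 2, while Tmc6 lost its call without any of the 7 arrays.

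Among called genes, 6 had every pair at 48 h on one side of 0 and the single pair of another time on the other. H2-Q10 differed by -0.052 at 24 h, Mmp10 by -0.105 at 24 h, Fah by -0.35 at 24 h, Tmc6 by 0.15 at 24 h, Prl by -0.63 at 72 h and Capg by 0.45 at 72 h. These differences between times rest on 1 array a group and were not tested.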

How the results depend on the processing

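All 39 called genes kept their sign under every alternative in which they were tested, and Hopx, Ifng, Iigp1, Prnp and Usp18 were called in each of them. With the replicate block the calls numbered 191 over the 7 arrays (108 higher, 83 lower), 81 over the 10 stimulated arrays (46 higher, 35 lower), 35 over the 13 arrays and 44 over the 13 arrays with only the compared groups paired, and the last 2 kept 24 and 26 of the 39. The blocks over 10 arrays and over all groups of the 13 match IFNa/b arrays by number, and same-numbered IFNa/b and Ag-B7 arrays correlated at only 0.11, -0.04 and -0.10. IFNa/b replicates 1, 2 and 3 correlated more with Ag-B7 replicates 2, 3 and 4, at 0.28, 0.28 and 0.45, so the numbers may not mark the pairs of that group. Median centring left 23 calls (6 lower), a prior without trend 25 (7 lower) and spike-in scaling 7 (5 higher, 2 lower), with 11 of the named genes called between IL-12 and IFNa/b in place of 18. Other pseudocounts, filters, quantile normalization and the mean of probe sets gave 32 to 41 calls. Leaving out 1 array gave 16 to 31 calls, 9 to 18 higher and 4 to 13 lower. The cause of these shifts was not tested.

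Sign changes were seen only in genes that were not called. Under every replicate block Map3k4 was -0.075, Map2k6 -0.033, Pias1 0.0013 and Tnf 0.19. Under spike-in scaling Tyk2 was -0.13, Map3k4 -0.11, Map2k6 -0.049 and Mapk14 -0.00093, and with the mean of probe sets Jak2 was 0.11, Map3k4 -0.23 and Map2k6 -0.14. With 1 array left out Il12rb1 ran from -0.0094 to 0.45, Tyk2 from -0.26 to 0.28, Jak2 from -0.33 to 0.012, Map3k4 from -0.075 to 0.25, Map2k6 from -0.16 to 0.33, Socs1 from -0.036 to 0.47, Pias1 from -0.32 to 0.011 and Tnf from -0.66 to 0.19. Beside 3 and 4 arrays a group, the linear MAS5 scale limits what can be read from dim genes.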

Other observations

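The paired fit called 153 genes that the fit of 13 arrays did not, 85 higher and 68 lower, of which 35 and 22 were past 2-fold. The arrays of the groups did not overlap for 73 of them. Over all genes tested, 3.55% did not overlap with IL-12 higher and 3.62% with IL-12 lower. The genes named here were picked after their values were seen, and all but Dusp6 lie outside the gene lists. Lilr4b, an inhibitory immunoglobulin-like receptor gene, lay at 85.3, 55.8, 262 and 846 on the Ag-B7 arrays and at 1360, 910.1 and 2341 on the IL-12 arrays. The lowest IL-12 array was above the highest control, and the 3 pairs of Lilr4b gave 3.42, 3.23 and 2.95. Its difference was 3.20 ± 0.21 in the paired fit (limma adjusted p = 4.22e-05) and 2.58 ± 0.61 in the other (limma adjusted p = 0.0753), and the single pairs gave 2.91 at 24 h and 2.80 at 72 h.

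S100a6, a calcium-binding protein gene, lay at 1020 and 482 on Ag-B7 replicates 1 and 2, at 752 and 142 on replicates 3 and 4, and at 2891, 1817 and 2181 with IL-12. The groups did not overlap (paired difference of S100a6 1.59 ± 0.16, limma adjusted p = 0.000687). Lgals3, the gene of galectin-3, lay at 3725, 1127, 1541 and 1026 without and at 7070.0, 3710.5 and 4767 with IL-12. Ag-B7 replicate 1 was level with IL-12 replicate 2 for Lgals3, so the groups overlapped (paired 1.40 ± 0.16, limma adjusted p = 0.00114). Dusp6, a phosphatase gene that turns off ERK kinases, differed by -1.61 ± 0.30 (paired limma adjusted p = 0.0191). Tnfsf9, the ligand of 4-1BB, differed by -1.51 ± 0.27 at 48 h (paired limma adjusted p = 0.0151), and its single pairs gave 1.44 at 24 h and 0.23 at 72 h.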
